A study of Mus musculus with 2 samples.

Results

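The mir-181 family was described in small RNA libraries from mouse hippocampus. Its members were taken by name, as the 6 annotated genes Mir181a-1, Mir181b-1, Mir181a-2, Mir181b-2, Mir181c and Mir181d among 2202 miRNA genes of GENCODE M21 in the count tables. They form 3 genomic clusters of 2 genes each, here called a-1/b-1, a-2/b-2 and c/d. The samples were 2 libraries of total RNA from female B6CASTF1/J mice at 36 days of age, a first-generation cross of C57BL/6J with CAST/EiJ, with no treatment and no second genotype. The labels call them biological replicates 1 and 2 and give them separate biosample entries under a common donor entry, so part of their spread may be technical. No group was set against another, and the values below compare genes within a library or one library with the other.

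MicroRNAs are cut from hairpin precursors, and a mature strand (the 5p or 3p arm) guides Argonaute proteins to messenger RNAs that pair with its seed, bases 2 to 8. The mir-181 family is known from brain and from lymphocytes: in mouse thymocytes miR-181a raises the sensitivity of T cell receptor signalling, and in cultured rat hippocampal neurons it lowers an AMPA receptor subunit. Genes of a cluster are generally cut from a common primary transcript. Because mature arms are repeated between clusters, the contribution of each cluster can be read only where its sequence is its own.

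The mature sequences are shown because they decide which reads can be assigned to a single gene. All 6 genes had both arms in the RefSeq table (GRCm38.p6), and the 6 genes encode 4 distinct 5p arms. The seed is in capitals, and the 5p arms read 5′ to 3′ as follows.
miR-181a-5p (Mir181a-1 and Mir181a-2): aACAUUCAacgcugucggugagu
miR-181b-5p (Mir181b-1 and Mir181b-2): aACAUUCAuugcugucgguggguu
miR-181c-5p (Mir181c): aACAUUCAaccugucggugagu
miR-181d-5p (Mir181d): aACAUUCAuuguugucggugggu
All 4 have the seed ACAUUCA, and no mature miRNA of another gene in the table has it. Counted from the 5′ end, miR-181d-5p differed from miR-181b-5p by C12U over the 23 positions they have in common. An alignment of miR-181c-5p with miR-181a-5p had 22 identical positions and 1 gap. From miR-181a-5p to miR-181b-5p the changes were A9U, C10U and A21G, outside the seed.

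The 3p arms were distinct in all 6 genes, and none occurred in another annotated miRNA hairpin. Those of the repeated genes are shown because they can tell the paralogs apart. Capitals mark bases that differ within the pair or lie past the end of the shorter arm.
miR-181a-1-3p: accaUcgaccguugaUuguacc
miR-181a-2-3p: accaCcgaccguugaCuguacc
miR-181b-1-3p: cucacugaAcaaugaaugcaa
miR-181b-2-3p: cucacugaUcaaugaaugcaaA
From the first to the other gene of a pair these are the changes U5C and U16C for miR-181a and A9U for miR-181b. The change U5C lies in the seed, so the miR-181a-1 and miR-181a-2 3p arms have the different seeds CCAUCGA and CCACCGA. The miR-181b 3p arms have the common seed UCACUGA, and miR-181c-3p has the seed of miR-181a-1-3p.

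The hairpins of each paralog pair are shown next with their longest common stretch in capitals, because a read inside that stretch matches both genes.
Mir181a-1 (chr1:137966455-137966541, plus strand): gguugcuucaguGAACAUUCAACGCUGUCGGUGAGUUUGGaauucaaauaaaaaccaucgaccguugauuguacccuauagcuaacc
Mir181a-2 (chr2:38852735-38852810, plus strand): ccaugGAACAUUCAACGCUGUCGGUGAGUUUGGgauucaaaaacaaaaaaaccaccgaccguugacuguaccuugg
Mir181b-1 (chr1:137966639-137966718, plus strand): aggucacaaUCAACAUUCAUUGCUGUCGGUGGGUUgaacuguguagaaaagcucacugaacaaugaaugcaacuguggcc
Mir181b-2 (chr2:38853830-38853918, plus strand): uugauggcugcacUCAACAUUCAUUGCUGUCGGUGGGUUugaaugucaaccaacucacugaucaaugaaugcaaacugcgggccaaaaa
The common stretch was 28 bases in the miR-181a pair and ran 4 bases past the 3′ end of the 5p arm. In the miR-181b pair it was 26 bases and ran 0 bases past that end, where the next base is g in Mir181b-1 and u in Mir181b-2. The Mir181c and Mir181d hairpins had no common stretch longer than 8 bases. Between Mir181a-1 and Mir181a-2 the whole hairpins were 71.4% identical, and between Mir181b-1 and Mir181b-2 they were 72.8% identical. Mir181c and Mir181d, which neighbour each other, were 56.0% identical.

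The a-1/b-1 cluster spans 264 bases of chromosome 1 with 97 bases between its hairpins, in an intron of the noncoding transcript Gm4258 (assembly mm10, GENCODE M21). The Mir181b-1 hairpin also lies in an exon of the lincRNA A430106G13Rik, which starts inside the Mir181a-1 hairpin, and the lincRNA Gm26936 runs over both on the opposite strand. The a-2/b-2 cluster spans 1184 bases of chromosome 2 with 1019 bases between the hairpins, antisense to an intron of Nr6a1, an orphan nuclear receptor gene. RefSeq places it within the noncoding gene Nr6a1os, transcribed in the same direction. The c/d cluster spans 246 bases of chromosome 8 on the minus strand, with Mir181c at chr8:84178873-84178961 and Mir181d at chr8:84178716-84178787, in an intron of the longest annotated extent of Nanos3, a gene known for germ cell development. The hairpins had 72 to 89 bases, and their GC content ran from 42.5% in Mir181a-1 to 58.4% in Mir181c.

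**Figure D1:**
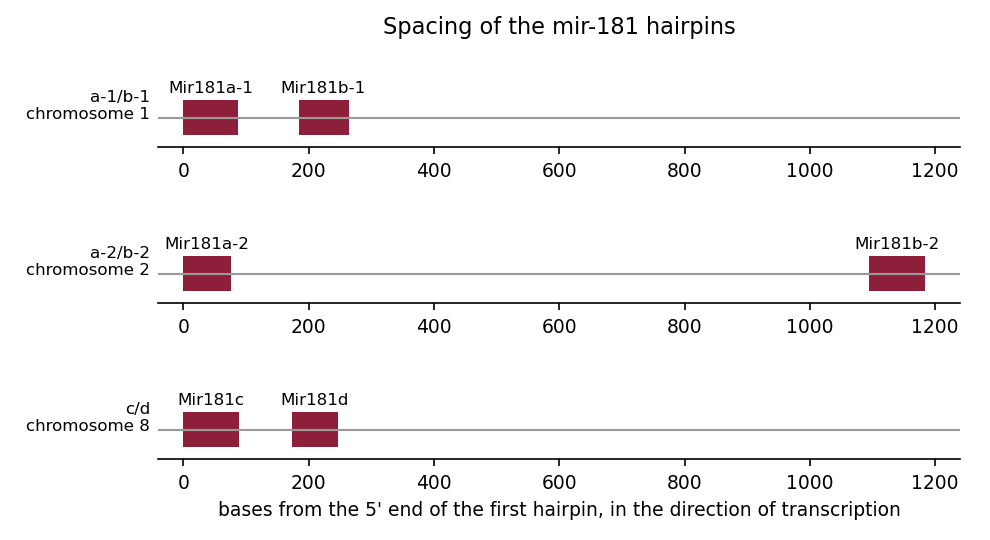
Hairpins (boxes) of the 3 mir-181 clusters to a common scale; the axis gives bases from the 5′ end of the first hairpin in the direction of transcription. The hairpins of a-1/b-1 and c/d lie 97 and 85 bases apart, and those of a-2/b-2 lie 1019 bases apart.

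Replicate 2 held 3644157 sense reads on miRNA genes and replicate 1 held 2928141, and counts per 1000000 such reads (CPM) use these totals. Reads that fit more than 1 place in the genome equally well are a row of their own in the tables, with 4807740 reads in replicate 2 and 3734600 in replicate 1. Reads that lie wholly within the stretches shown above as common to a pair have more than a single place by construction. The counts of Mir181a-1, Mir181a-2, Mir181b-1 and Mir181b-2 therefore leave out such reads, how many of them came from this family was not analysed here, and the levels of these 4 genes are uncertain. The arms of Mir181c and Mir181d were found in no other annotated hairpin. Counts are per hairpin, so the arms were not told apart, and since reads come from the arms, CPM was not divided by hairpin length. A count of 0 would allow up to 0.823 CPM in replicate 2 and 1.02 CPM in replicate 1 (3 counts), and all intervals here cover counting error only, as no molecular identifiers were used.

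All 6 genes had at least 10 sense reads in both libraries, a limit that 17.1% of the 2202 miRNA genes reached. Together they took 0.740% of the assigned miRNA reads of replicate 2 (exact Clopper-Pearson 95% interval 0.731% to 0.749%) and 0.683% of replicate 1 (0.673% to 0.692%), or 7115 ± 405 CPM (SD, n = 2). Reads with several places are in neither part of these shares. Their median of mean CPM was 1152, beside 152 over the 376 genes that reached the limit. None of the 6 had an antisense read.

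The neighbours on chromosome 8 had the most assigned reads of the family. The levels and ranks given here leave out reads with several places. Mir181d had 9970 reads (2736 CPM) in replicate 2 and 6200 reads (2117 CPM) in replicate 1, a mean of 2427 ± 437 CPM (SD, n = 2). Mir181c had 9014 reads (2474 CPM) in replicate 2 and 6537 reads (2232 CPM) in replicate 1, a mean of 2353 ± 170 CPM. Their order changed between the libraries, and they did not differ beyond their spread. By mean CPM they stood at ranks 60 and 62 of all miRNA genes.

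Mir181b-2, on chromosome 2, had 5566 reads (1527 CPM) in replicate 2 and 5523 reads (1886 CPM) in replicate 1, a mean of 1707 ± 254 CPM and rank 74. By assigned reads it lay below Mir181c and Mir181d in both libraries. Mir181a-1, on chromosome 1, had 2310 reads (634 CPM) in replicate 2 and 1641 reads (560 CPM) in replicate 1, a mean of 597 ± 51.9 CPM and rank 123. Its values did not overlap those of Mir181b-2 above it or of any gene below it.

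The remaining genes of these clusters had few assigned reads. Mir181b-1 had 51 reads (14.0 CPM) in replicate 2 and 63 reads (21.5 CPM) in replicate 1, a mean of 17.8 ± 5.32 CPM. Mir181a-2 had 62 reads (17.0 CPM) in replicate 2 and 32 reads (10.9 CPM) in replicate 1, a mean of 14.0 ± 4.30 CPM. The order of the pair changed between the libraries, so they did not differ beyond their spread, and both stood above the 3 counts that a count of 0 allows.

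**Figure D2:**
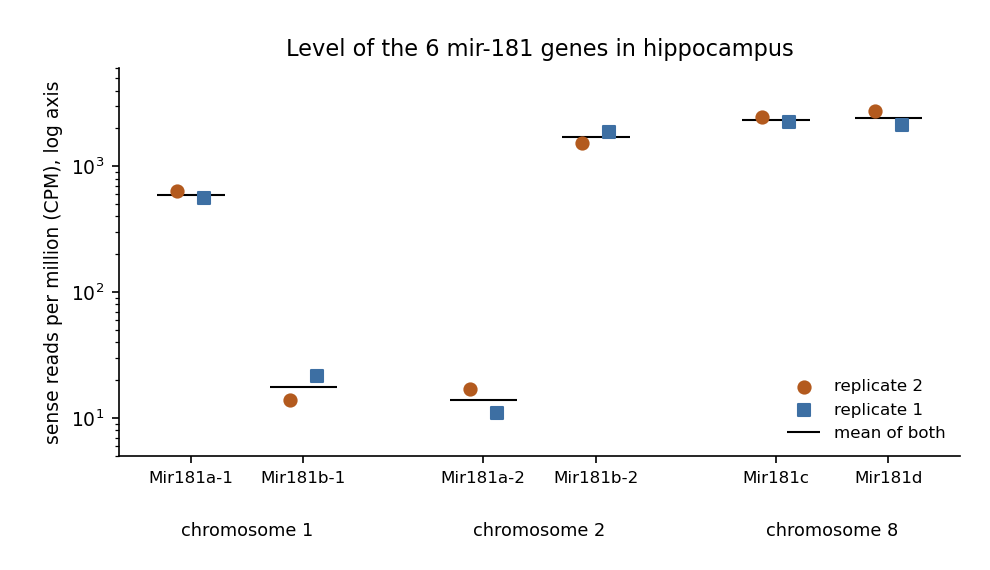
CPM of each mir-181 gene on a log axis, with circles for replicate 2, squares for replicate 1 and lines for the mean of both. Mir181c, Mir181d and Mir181b-2 lie between 1527 and 2736 CPM, Mir181a-1 between 560 and 634 CPM, and Mir181b-1 and Mir181a-2 between 10.9 and 21.5 CPM.

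The c/d cluster held most of the assigned reads of the family. It took 70.4% of them in replicate 2 (exact 95% interval 69.8% to 70.9%) and 63.7% in replicate 1 (63.0% to 64.4%). The a-2/b-2 cluster took 20.9% in replicate 2 (20.4% to 21.4%) and 27.8% in replicate 1 (27.2% to 28.4%), and a-1/b-1 took 8.75% (8.42% to 9.10%) and 8.52% (8.14% to 8.92%). The order c/d, a-2/b-2, a-1/b-1 was the same in both libraries. In CPM the clusters had 4780 ± 608, 1721 ± 249 and 615 ± 46.6 (SD, n = 2).

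Ratios within a library do not depend on the scaling. The c/d cluster had 8.04 times the reads of a-1/b-1 in replicate 2 (exact binomial 95% interval 7.70 to 8.40) and 7.47 times in replicate 1 (7.11 to 7.87). It had 3.37 times the reads of a-2/b-2 in replicate 2 (3.27 to 3.48) and 2.29 times in replicate 1 (2.22 to 2.37), intervals that did not overlap. With 2 libraries no exact test over samples can pass, since the smallest two-sided sign-flip p is 0.5. These are ratios of assigned reads, and 4 of the 6 genes leave out reads that lie within the stretch common with their paralog. With each cluster given by its higher gene alone, the log2 ratio of c/d to a-2/b-2 was 0.50 ± 0.48 (SD, n = 2). This lead was about as large as its spread. For the summed genes the log2 ratio was 1.48 ± 0.39.

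**Figure D3:**
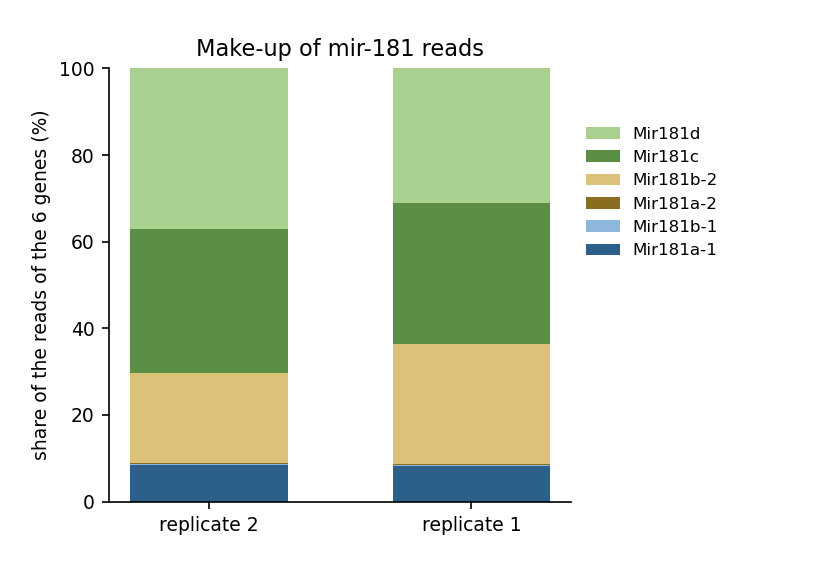
Share of the assigned mir-181 reads (%) held by each of the 6 genes in replicate 2 and replicate 1. Mir181c and Mir181d fill most of each bar, Mir181b-2 takes 20.6% and 27.6%, Mir181a-1 takes 8.56% and 8.21%, and Mir181b-1 and Mir181a-2 are barely visible.

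By assigned reads, partners within a cluster were balanced in c/d and far apart in the other clusters. Mir181c had 0.904 times the reads of Mir181d in replicate 2 (exact binomial 95% interval 0.879 to 0.930) and 1.05 times in replicate 1 (1.02 to 1.09), on either side of equality. In a-1/b-1 the a gene led: Mir181a-1 had 45.3 times the reads of Mir181b-1 in replicate 2 (34.3 to 61.0) and 26.0 times in replicate 1 (20.3 to 34.1). In a-2/b-2 the b gene led: Mir181b-2 had 89.8 times the reads of Mir181a-2 in replicate 2 (69.9 to 117) and 173 times in replicate 1 (122 to 253). The leading partner by assigned reads thus differed between the paralogous clusters in both libraries.

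The paralogs of each pair were also far apart in assigned reads, which leave out reads that lie within their common stretch. Mir181a-1 had 37.3 times the reads of Mir181a-2 in replicate 2 (exact binomial 95% interval 29.0 to 48.8) and 51.3 times in replicate 1 (36.2 to 75.2). Mir181b-2 had 109 times the reads of Mir181b-1 in replicate 2 (82.9 to 147) and 87.7 times in replicate 1 (68.4 to 114). So the paralog with more assigned reads lay on chromosome 1 for miR-181a and on chromosome 2 for miR-181b. These ratios do not give how much of the common 5p arm came from each paralog. Which arm of these hairpins the assigned reads came from is not given by the counts.

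For comparison, 53 sets of miRNA genes have names that differ only in a final -1, -2 or -3, as the mir-181 pairs do. Of their 115 genes, 42 reached 10 reads in both libraries (36.5%). In 19 sets the higher gene and the next both did, and the ratio of the higher to the next, over both libraries, had a median of 5.43. It was 97.8 for Mir181b and 43.7 for Mir181a, ranks 2 and 3 of the 19, behind Mir219a, a set of oligodendrocyte miRNA genes, at 184. The median over the 17 sets without the mir-181 pairs was 2.72. Sets in which only the higher gene reached the limit have no ratio here and are outside these ranks and medians. The higher gene was picked by its mean over assigned reads, so these ratios describe the sets and carry no test.

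**Figure D4:**
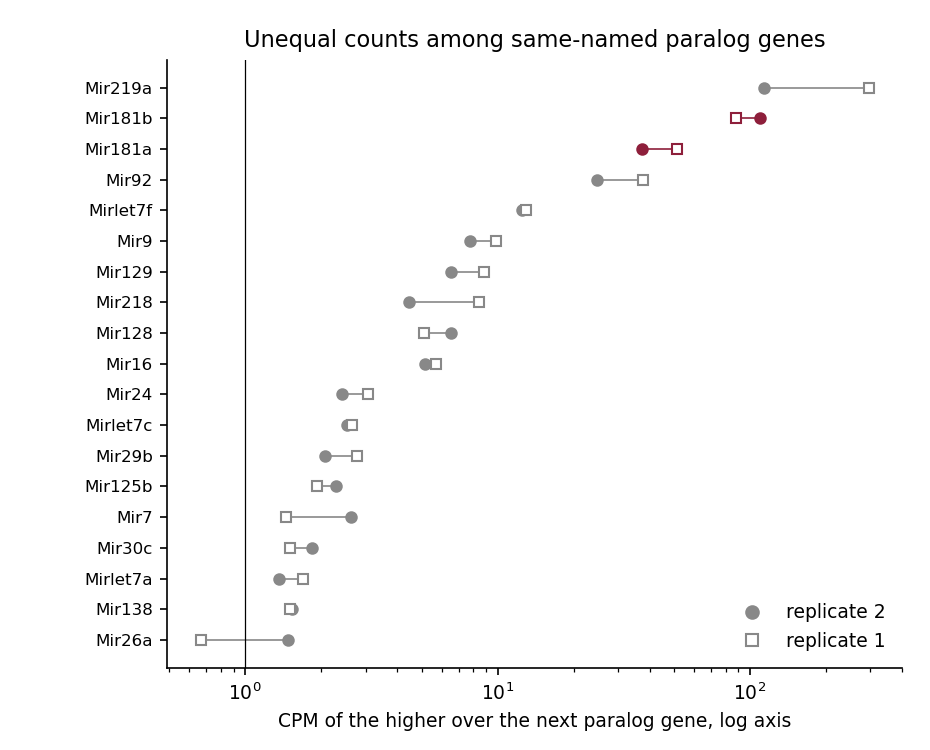
CPM of the higher gene over the next gene in 19 paralog sets (log axis), with filled circles for replicate 2, open squares for replicate 1 and the mir-181 sets in red. Mir181b (109 and 87.7) and Mir181a (37.3 and 51.3) lie near the top, and the median of all 19 sets is 5.43.

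The sequence classes of the members were also described over all their genes, the members included. Of 657 miRNA genes with exactly 2 arms in the RefSeq table, 61 had a single arm that also occurs in another annotated hairpin, and 37 of these (60.7%) reached 10 reads in both libraries. Mir181a-1, Mir181a-2, Mir181b-1 and Mir181b-2 belong to this class. Its detected genes had a median of 159 CPM, with Mir181b-2 and Mir181a-1 above it and Mir181b-1 and Mir181a-2 below it. Of 573 genes with neither arm elsewhere, the class of Mir181c and Mir181d, 246 reached the limit (42.9%), with a median of 175 CPM. Of 23 genes with both arms elsewhere, 4 did (17.4%).

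Between the libraries the family differed little in sum, and its genes moved in both directions. In total, the ratio of replicate 2 to replicate 1 in CPM was 1.08 (exact binomial 95% interval 1.06 to 1.10). The two-sided exact binomial test on reads, with Benjamini-Hochberg adjustment over 474 miRNA genes with at least 10 reads in sum, called 5 of the 6 genes, of which 3 were higher in replicate 2 and the other 2 in replicate 1. The same test called 58% of all genes tested, 31.6% as higher in replicate 2 and 26.4% as higher in replicate 1. It sets the reads of these libraries, not conditions, against each other, with no noise but that of counting. The median log2 ratio was 0.16 over the 6 genes and 0.04 over all genes tested.

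Mir181d had a ratio of 1.29 of replicate 2 to replicate 1 (1.25 to 1.33; adjusted p = 1.44e-56, exact binomial test). Mir181c had a ratio of 1.11 (1.07 to 1.14; adjusted p = 9.33e-10, exact binomial test) and Mir181a-1 one of 1.13 (1.06 to 1.21; adjusted p = 0.000346, exact binomial test). Those 3 genes were called higher in replicate 2. Mir181b-2 had a ratio of 0.810 (0.780 to 0.841; adjusted p = 7.75e-28, exact binomial test), so it was called lower in replicate 2, as was Mir181b-1 at 0.650 (0.441 to 0.956; adjusted p = 0.0422, exact binomial test). Without the filter on low counts Mir181b-1 was no longer called (adjusted p = 0.0624, exact binomial test). Mir181a-2 had a ratio of 1.56 (1.0005 to 2.47) and was not called (adjusted p = 0.0798, exact binomial test).

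These differences lay inside the general spread of the libraries. Among 295 genes that averaged at least 50 reads over both libraries, 52.5% had a smaller absolute log2 ratio than Mir181d, 45.4% than Mir181b-2, 25.4% than Mir181a-1 and 21.02% than Mir181c. For Mir181b-1 and Mir181a-2, with few reads, it was 71.2% and 72.5%. Summed by cluster, the ratio of replicate 2 to replicate 1 was 1.20 for c/d (1.17 to 1.22), 1.11 for a-1/b-1 (1.05 to 1.19) and 0.814 for a-2/b-2 (0.784 to 0.845). The a-2/b-2 cluster thus went the other way from the clusters on chromosomes 8 and 1, by counting intervals only.

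**Figure D5:**
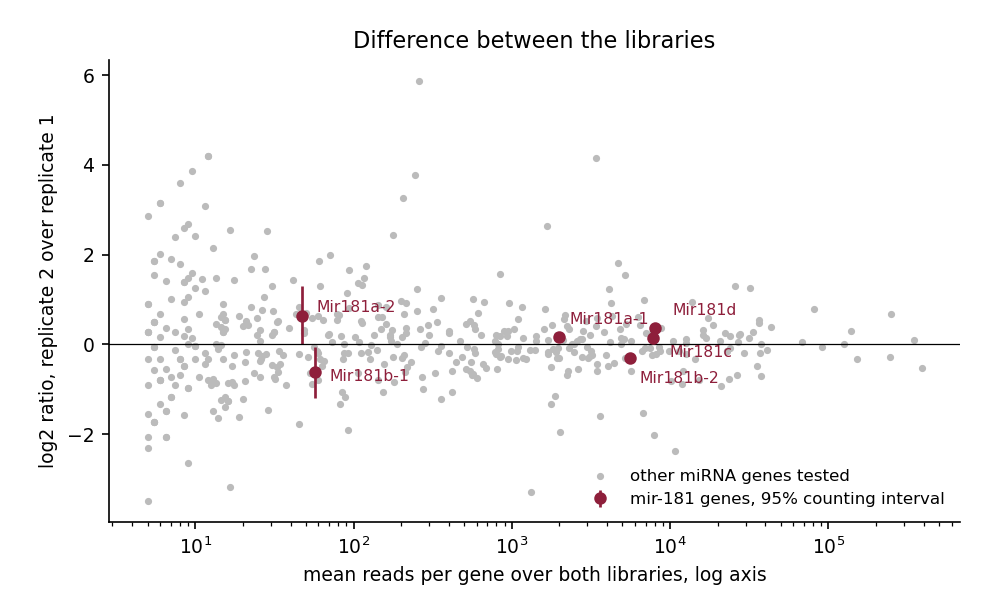
Log2 ratio of replicate 2 over replicate 1 in CPM against mean reads per gene (log axis), with mir-181 genes in red with exact 95% counting intervals and other tested miRNA genes in grey. Mir181a-1, Mir181c and Mir181d lie just above 0, Mir181b-2 at -0.30 lies below, and all 6 lie among the other genes.

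Markers of the tissue and of other cells were read beside these values, and in most lists single genes went both ways. Neuronal miRNAs summed to 41459 CPM in replicate 2 and 36659 CPM in replicate 1, with 8 of 12 genes detected, but 5 of the 12 had a higher CPM in replicate 2 and 7 a lower one. Mir137 had 12631 CPM in replicate 2 and 9112 CPM in replicate 1, while Mir132 had 10636 and 12153 CPM. Of the rest, 2 of the 3 Mir124a genes had at most 4 reads in each library, and Mir124a-2 had 0 in replicate 2. The undetected neuronal genes all belong to Mir124a and Mir9, sets of paralogs named as the mir-181 pairs are. Reads that fit several places are in no gene's count, so these low counts do not give the level of the mature miRNAs. Vessel miRNAs (3 of 3 detected) summed to 15579 CPM in replicate 2 and 19436 CPM in replicate 1. Of these sums Mir126a held 8969 and 14516 CPM, while the other 2 genes had a higher CPM in replicate 2. Microglia and leukocyte miRNAs (4 of 5) summed to 1881 and 1589 CPM, with 3 genes at a higher CPM in replicate 2 and 2 at a lower one. Oligodendrocyte miRNAs (3 of 3) summed to 2536 CPM in replicate 2 and 5352 CPM in replicate 1, and red blood cell miRNAs (3 of 3) to 340 and 1176 CPM, with all 3 genes of each list at a lower CPM in replicate 2. Choroid plexus and cilia miRNAs (4 of 4) summed to 2660 CPM in replicate 2 and 1146 CPM in replicate 1, with 3 genes at a higher CPM in replicate 2 and Mir449a at a lower one. The part of these differences in the mir-181 ratios was not tested, and in tissue RNA fewer cells of a type and less RNA per cell cannot be told apart.

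The genes nearest in level to Mir181d, by distance in log2(CPM + 1) over the 2 libraries, were Mir369, Mir676 and Mir130a. At a distance of 0.02, Mir369 had 2730 CPM in replicate 2 and 2152 CPM in replicate 1. Mir676 had 2521 and 2111 CPM (distance 0.12), and Mir130a had 2968 and 2292 CPM (distance 0.16). With 2 libraries this measures a like level and no pattern across conditions.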

How the data were processed

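Per the labels, total RNA of hippocampus was turned into small RNA libraries with a size range below 30. The deposited values are whole-number read counts per miRNA gene, not normalized, in 3 unnamed columns; the deposited notes name assembly mm10 and GENCODE M21, and no aligner is given in the sources used here. The column with the larger stranded total was read as sense. Rows that name no gene stayed out of totals; they made up 65.3% of replicate 2 and 69.5% of replicate 1. All 2202 identifiers matched GENCODE M21. The libraries were not a duplicate deposit (chi-square over genes 390 times its degrees of freedom).

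From the counts, CPM, ratios with exact binomial intervals and the read test (threshold 0.05) were computed. The test was run on simulated counts with counting noise alone, which does not cover the wider spread between these libraries. Sequences came from RefSeq (GRCm38.p6). Mir181c had no hairpin there, and its hairpin and all comparisons of hairpins used GENCODE M21 transcripts. Named genes were the 6 members and the 3 nearest in level to the highest; Mir219a and the single markers were named after their values were seen. Members and lists were chosen with earlier results of these data known. Alternatives were counts without strand, TMM (edgeR 4.0.16) and DESeq2 (1.42.0) scaling, other totals, filters and detection limits, higher genes in place of sums, and leaving out either replicate. Python 3.11.15, scipy 1.17.1 and R 4.3.3 were used.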

Additional observations from a re-analysis of the deposited data

Results flagged for a closer look

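Reads with several equally good places, which belong to no gene row and so enter no gene's count or CPM above, numbered 4807740 in replicate 2 and 3734600 in replicate 1, or 1.32 and 1.28 per assigned read. They stand out as a signal outside the main counts; their share from the mir-181 family was not analysed here.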

How the results depend on the processing

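Of 139 recomputed values, 121 stayed within the spread between replicates, or on their side of the threshold or within 1.5 times for tests and counts, and none changed sign beyond its spread. Some of the 121 could not have failed. A single replicate always lies within this spread of the mean of both, so levels and ratios without either replicate had to stay inside it. Ratios within a library were identical without strand, because the counts of the 6 genes were the same. Scaling to all reads in the tables, unassigned ones included, gave 196, 5.71, 4.62, 553, 770 and 798 CPM for Mir181a-1, Mir181b-1, Mir181a-2, Mir181b-2, Mir181c and Mir181d, and 1569, 558 and 201 CPM for c/d, a-2/b-2 and a-1/b-1; the larger total lowers every level. Totals without the most abundant gene gave 678 CPM for Mir181a-1, 2673 for Mir181c, 5425 for c/d and 699 for a-1/b-1. Without strand Mir181c had 2541 CPM and a-1/b-1 664 CPM. With the higher gene in place of the sum, the log2 ratio of c/d was 2.01 ± 0.14 to a-1/b-1 and 0.50 ± 0.48 to a-2/b-2 (SD). Mir181b-1, at a log2 ratio of -0.62 between libraries, was no longer called with more genes tested (at least 1 read in sum; adjusted p = 0.0624, exact binomial test); its adjusted p ran from 0.0266 to 0.0624 over the alternatives. Leaving out a replicate moved the log2 ratio of Mir181c to Mir181d between -0.15 and 0.08, so its direction rests on a single library. At least 100 reads in sum left no value for Mir181a-2. All 6 genes stayed detected with limits of 3 and 30 reads. No paired analysis was possible because there was 1 group. Mir181b-1 and Mir181a-2 had 32 to 63 assigned reads, which limits the precision of their values. Reads that lie wholly within the stretch each has in common with its paralog are not among these. Longer 5p reads that run past that stretch can be.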
